A study of Mus musculus with 2 samples.

Results

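The loci of 10 genes of the transforming growth factor beta (TGF-beta) pathway were examined for open chromatin in mouse CD8+ T cells. The genes were the ligand gene Tgfb1, the receptor genes Tgfbr1, Tgfbr2 and Tgfbr3, the Smad genes Smad2, Smad3, Smad4 and Smad7, and the corepressor genes Ski and Skil. Each was matched by its symbol among 21887 protein-coding genes, and given a locus made of its RefSeq span with 50 kb on each side. All deposited peaks touching these loci were taken, 186 of 85137 control peaks and 151 of 64910 treatment peaks. The assay was ATAC-seq, in which a transposase cuts and tags accessible DNA, and 1 library titled control and 1 titled treatment were profiled. The series title names the cells Peml-1 CD8+ T cells. The labels give no strain, age, agent, dose or time for either group, and the field for genotype holds a description of the assay. A second label, the field on treatment, has the entry "Treatment" at the control library and "Combined treatment" at its counterpart, so whether the control cells were given something is not clear. Control and treatment mean the titles throughout. Without replicates no test was made, and every difference is one between these libraries.

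TGF-beta is secreted in a latent form and, once released, binds the type II receptor, which then activates the type I receptor. The type I receptor phosphorylates Smad2 and Smad3, which join Smad4 and move to the nucleus to act on target genes together with other transcription factors. Smad7 blocks the active receptor, and Ski and SnoN, the product of Skil, hold Smad target genes in check. In T cells the pathway is known for restraining proliferation and effector differentiation, and for inducing CD103 on cells that settle in epithelia.

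Markers were read as a check of the label. Of the 7 CD8+ T cell markers, 6 matched a gene (Cd8a, Cd8b1, Cd3e, Cd3d, Cd3g and Lck), and all 6 had a peak within 1 kb of a gene end in each library. Among 20 markers of other cells, 12 had such a peak in control and 9 in treatment, beside 66.1% and 61.5% of all genes. Myeloid markers had 3 of 4 in control and 1 of 4 in treatment, and melanocyte markers 3 of 3 and 2 of 3. In each library alike, stromal markers had 2 of 2, CD4+ T cell markers 2 of 3, B cell markers 1 of 4, erythroid markers 1 of 2 and natural killer cell markers 0 of 2. The part of other cells in the values below was not tested. In bulk cells, fewer cells of a type and less accessible DNA per cell cannot be told apart.

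RefSeq promoter windows of the same assembly (GRCm38.p6), from 250 bases before to 50 after a start site, were at hand for 5 members. They covered Tgfb1, Tgfbr2, Smad3, Ski and 2 start sites of Tgfbr1. A control and a treatment peak each spanned the whole window at Tgfb1, Tgfbr2, Smad3 and the first Tgfbr1 start. No peak of either library touched the second Tgfbr1 window or the Ski window. The 250 bases before the start are printed 5′ to 3′ on the gene's strand for both Tgfbr1 starts, 1 open and 1 without a peak, for Tgfbr2, which has an open start and a Smad box, and for Ski. Capitals mark the Smad box CAGAC and the GC-rich Smad box GGCGC on either strand.
Tgfbr1 first start, plus strand, chr4:47352972-47353221: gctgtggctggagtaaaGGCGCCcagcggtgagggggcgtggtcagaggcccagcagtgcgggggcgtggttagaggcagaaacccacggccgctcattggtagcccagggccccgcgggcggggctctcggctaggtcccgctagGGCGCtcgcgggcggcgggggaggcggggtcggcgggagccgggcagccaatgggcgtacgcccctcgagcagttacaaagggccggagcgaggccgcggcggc
Tgfbr1 second start, plus strand, chr4:47385966-47386215: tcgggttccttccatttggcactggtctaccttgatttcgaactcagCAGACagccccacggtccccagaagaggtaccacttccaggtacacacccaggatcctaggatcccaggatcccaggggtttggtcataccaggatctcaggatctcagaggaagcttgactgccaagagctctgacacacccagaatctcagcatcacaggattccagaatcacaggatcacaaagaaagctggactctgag
Tgfbr2, minus strand, chr9:116175364-116175613: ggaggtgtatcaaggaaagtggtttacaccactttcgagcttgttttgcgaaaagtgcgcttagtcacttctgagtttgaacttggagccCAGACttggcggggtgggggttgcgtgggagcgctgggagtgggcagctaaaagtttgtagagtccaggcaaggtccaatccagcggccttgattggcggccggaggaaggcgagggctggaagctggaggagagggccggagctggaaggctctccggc
Ski, minus strand, chr4:155222536-155222785: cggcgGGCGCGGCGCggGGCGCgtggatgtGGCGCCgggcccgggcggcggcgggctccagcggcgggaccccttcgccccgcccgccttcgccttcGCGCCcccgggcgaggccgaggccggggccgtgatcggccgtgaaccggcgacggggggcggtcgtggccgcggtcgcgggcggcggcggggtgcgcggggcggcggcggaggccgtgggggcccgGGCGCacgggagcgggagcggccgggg

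The Ski window was 85.3% G or C, against 74.7% and 52.0% at the Tgfbr1 starts and 59.0% at Tgfbr2. Of the 42 promoter windows with 85 to 90% G or C, 39 held a control peak and 30 a treatment peak. The Ski window was thus among the few of its kind without a control peak, while lack of a treatment peak was more common. The second Tgfbr1 start lies among windows of 50 to 55% G or C, of which 35.9% held a control peak and 31.9% a treatment peak. Motifs were searched on both strands, overlapping matches included, in the 6 whole windows of 300 bases and in all 32817 such windows. The Smad box CAGAC stood in 2 of the 6 windows, at Tgfbr2 and the second Tgfbr1 start, and in 49.6% of all. The GC-rich Smad box GGCGC stood in 3, at Ski with 7 matches, the first Tgfbr1 start with 3 and Tgfb1 with 2, and in 36.8% of all. The ETS core GGAAG was in all 6 and in 71.4% of all windows. The palindromic element GTCTAGAC, the AP-1 site TGANTCA, the Runx site TGTGGT and the cyclic AMP element TGACGTCA were in none of the 6, and in 0.213%, 7.81%, 16.8% and 1.79% of all. None of these letter strings contains another.

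Fewer peaks were found in treatment than in control at 9 of the 10 loci, and as many at Smad7. Over all protein-coding genes 66.7% had fewer locus peaks in treatment and 5.32% had more, and genes with no peak at all count as equal there. Of the genes with any peak, 77.9% had fewer. The member total of 151 treatment peaks was 0.812 times the 186 control peaks, close to the ratio of 0.785 over the loci of all genes. Over all genes, a peak in overlapping loci counts once for each. Peaks in control and treatment numbered 20 and 16 at Tgfb1, 11 and 9 at Tgfbr1, 33 and 27 at Tgfbr2 and 22 and 21 at Tgfbr3. They numbered 7 and 5 at Smad2, 30 and 21 at Smad3, 12 and 8 at Smad4 and 19 and 19 at Smad7. Ski had 19 and 17 and Skil 13 and 8. With the control list reduced to the length of the treatment list, only Tgfbr1, Smad3, Smad4 and Skil still had fewer peaks in treatment, and the total ratio was 1.04. That setting makes both lists equally long by design, so a total close to equal says little about the members. What the differences in number come from was not tested.

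**Figure D1:**
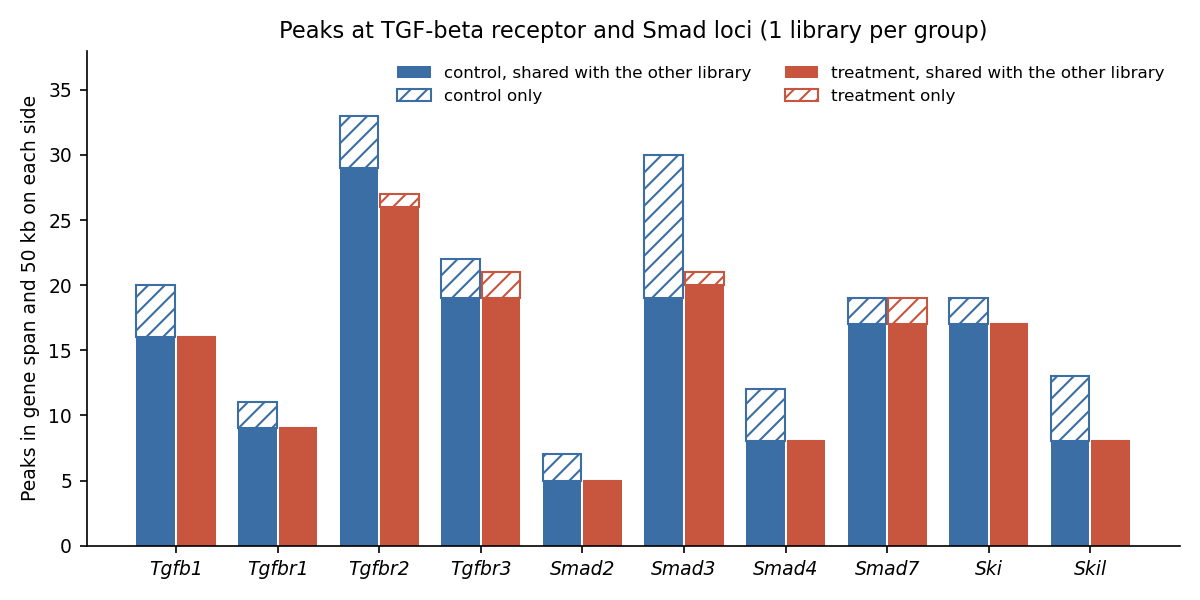
Number of peaks (y axis) in the span and 50 kb on each side of each of the 10 genes (x axis), control in blue and treatment in red, filled where a peak has an overlap with the other list and hatched where it has none. Smad3 holds 11 of the 39 control-only peaks and 30 of all 186 control peaks, and Smad7 has 19 peaks in each library.

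Density of peaks differed widely among the members. Tgfbr2 had 17.6 control peaks per 100 kb and Tgfb1 16.9, at percentiles 96.9 and 96.1 of all protein-coding genes. Smad2 had 4.10 per 100 kb, at percentile 36.1, and was the only member under the median of all genes, 6.43. Neighbouring genes share some loci. Of the control member peaks, 39 touched another gene or its 1 kb flanks, 17 of them at Tgfb1, which sits among B9d2, Tmem91, Exosc5, Bckdha, Ccdc97 and Hnrnpul1. Without such peaks Tgfb1 had 3 peaks in each library and Ski 13 in each.

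Control-only peaks, those with no overlap of at least 1 bp in treatment, made up 39 of 186 control member peaks, or 21.0% (95% exact binomial interval 15.4 to 27.5%), against 29.2% of the whole control list. Treatment-only peaks made up 6 of 151, or 3.97% (1.47 to 8.45%), against 6.80% of the whole treatment list. Intervals cover counting error only, and reads without molecular identifiers are not independent molecules. Single-library peaks were narrow and weak. Their median width was 302 bp in control, against 673 bp for shared control peaks, and 244.5 bp in treatment, against 580 bp. Of the 40 control member peaks whose fold enrichment was in the top quartile of the list, 0 were control-only, which allows a share of up to 7.50%, beside 2.61% in the whole list. In the lowest quartile 23 of 52 were control-only (44.2%, beside 61.7%).

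Most control-only peaks, 29 of 39, lay outside the gene spans. Within the spans, away from their ends, 9 of 76 control peaks were control-only (11.8%), outside them 29 of 95 (30.5%), and at the members' own ends, taken as 1 kb to either side, 1 of 15. Peaks outside the spans include those in or at neighbouring genes, so for the whole list the member peaks were also placed by any protein-coding gene. In gene bodies 20 of 104 were then control-only (19.2%), beside 32.4% of the whole control list in such places. Between genes 15 of 57 were (26.3%), beside 33.8%, and at gene ends 4 of 25 (16.0%), beside 13.4%. Of the 9 in the members' own spans, 6 lay in Smad3, 2 in Smad7 and 1 in Tgfbr3. The 3 strongest control-only peaks by the authors' fold enrichment all touched a neighbouring gene: 1 at Hnrnpul1 in the Tgfb1 locus (25736935 to 25737338, fold 10.9), 1 at Elac1 in the Smad4 locus (73744872 to 73745428, fold 9.24) and 1 at Gadl1 in the Tgfbr2 locus (116063030 to 116063362, fold 9.21). The 3 strongest treatment-only peaks, in the fold of their own list, were 2 at Tgfbr3 (5.92 and 5.48) and 1 at Smad7 (4.30).

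Strength was compared as reads covering the summit. The authors' fold enrichment and −log10 p-value of a peak together fix a whole-number coverage, which was found for all member peaks of both libraries. The lowest local backgrounds stood at a treatment to control ratio of 1.06. Each divided by the narrowest peak width of its list, 176 bp in control and 186 bp in treatment, they stood at 1.006. The coverages were compared unscaled. Shared peaks were matched 1 to 1 by best mutual overlap, giving 144 member pairs. The treatment coverage was lower in 114 pairs and higher in 30, with a median ratio of 0.748, against 0.706 over all 59860 pairs. It was at least 2-fold lower in 27 of 144 pairs, or 18.8%, against 21.4% of all pairs. It was at least 2-fold higher, by unscaled coverage, in 5 of 144 pairs, a larger share than the 0.917% of all pairs. Not all 5 stayed so by deposited fold or after scaling by the lowest backgrounds. Any higher value in treatment was found in 14.9% of all pairs. The 95% exact interval of the ratio, for counting error alone, lay wholly under 1 in 98 of the 144 member pairs, a share near the 70.4% of all pairs. It lay wholly above 1 in 18 of the 144, a larger share than the 6.94% of all pairs. With the deposited folds, which divide by the local background, in place of coverage, the median ratio was 0.902 and 10 pairs were at least 2-fold lower.

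**Figure D2:**
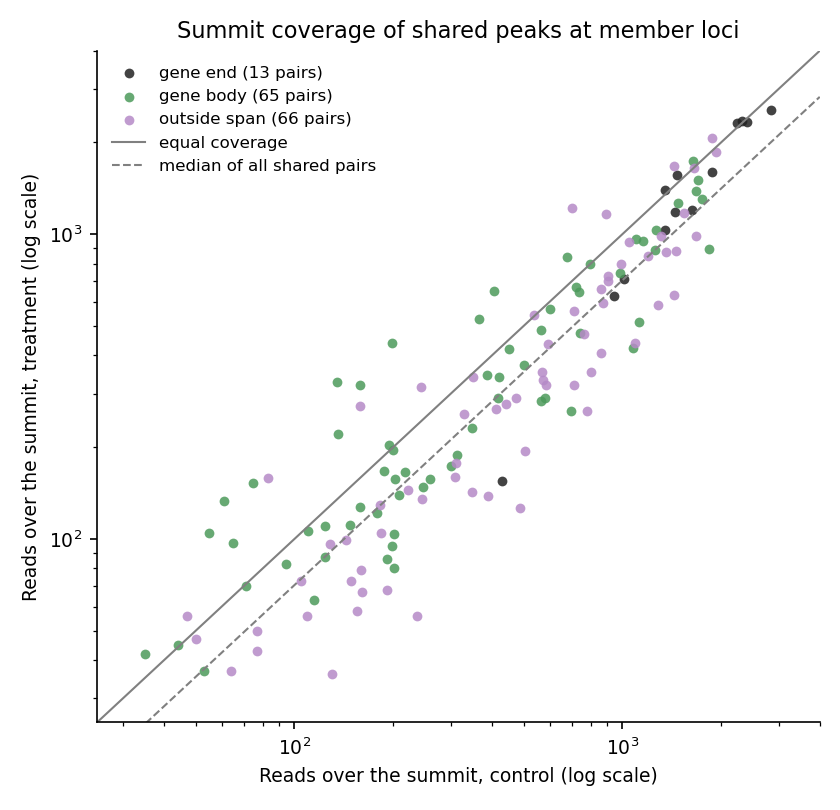
Reads over the summit in treatment (y axis, log scale) against control (x axis, log scale) for the 144 shared pairs, coloured by place at the gene end, in the gene body or outside the span. The solid line marks equal coverage and the dashed line the median ratio of all shared pairs, 0.706. Most pairs lie under the solid line, and the gene end pairs of highest coverage lie close to it.

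Coverage was nearest to equal at gene ends and lowest relative to control outside the spans. The median ratio was 0.855 in 13 gene end pairs, 0.821 in 65 gene body pairs and 0.638 in 66 pairs outside the spans. By deposited folds these medians were 0.949, 0.900 and 0.875, in the same order of places but closer together. Placed by any protein-coding gene, the member pairs had median coverage ratios of 0.879 at gene ends, 0.754 in gene bodies and 0.638 between genes, beside 0.817, 0.685 and 0.661 over all pairs. The ratio also moved with coverage itself: over all pairs it was 0.732, 0.611, 0.648 and 0.841 from the lowest to the highest quartile of control coverage. The member pairs had 0.842, 0.604, 0.679 and 0.773 in the same quartiles, with 34, 26, 34 and 50 pairs, and thus stood above all pairs in some quartiles and below them in others. The part of coverage in the difference between places was not tested.

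Tgfb1 (chromosome 7, 25687002 to 25705077), the gene of the main T cell ligand, had near-equal coverage at its start and lower coverage in treatment in its body. The peak over its start, which also touches B9d2, had 1352 control and 1393 treatment reads (ratio 1.03, 0.955 to 1.11), with the summit 40 bp outside the span in control and 45 bp in treatment. Its fold enrichment was 4.24 in control and 6.67 in treatment over a local background of 318 and 208 reads. The peak in the gene body had 1836 and 891 reads, a ratio of 0.485 (0.447 to 0.526). The peak just beyond the far end had 431 and 155, a ratio of 0.360 (0.297 to 0.433), the lowest of any gene end pair. The strongest peak of the locus by fold, 21.4 in control and 22.3 in treatment, lay 27.9 kb from the gene at Bckdha and Exosc5 and had 1433 and 1673 reads.

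Tgfbr2 (chromosome 9, 116087695 to 116175363), which encodes the ligand-binding type II receptor, had the widest gap of the members between its body and outside medians. The 15 pairs in its body had a median ratio of 1.003, and 8 of them were higher in treatment. Over all pairs in the bodies of any protein-coding gene, 15.4% were higher. Of the 8, 4 had an interval of the ratio wholly above 1, including the pair with different summits described last. The rest had 44 and 45, 35 and 42, 796 and 798, and 194 and 203 reads in control and treatment. The 10 pairs outside its span had a median of 0.504, and 0 of them were higher. With coverage divided by 1.06, the ratio of the lowest backgrounds, the body median was 0.943 with 5 pairs higher. By deposited folds it was 0.965 with 7 higher, against 0.649 outside with 2 higher. On the start side, the 6 flank pairs ranged from 0.336 to 0.895 with a median of 0.407. Among them, the pair 6.45 kb from the start had 1093 reads in control and 440 in treatment, and the pair at 36.9 kb had 782 and 263. In the body, the pair with summits near 26.8 kb from the lower end had 405 and 650 reads, a ratio of 1.60 (1.42 to 1.82), and that near 35.5 kb had 678 and 843, a ratio of 1.24 (1.12 to 1.38). The strongest peak of the locus by fold in each list lay near 57.7 kb and had 796 and 798 reads. The start peak, 2222 bp wide in control and 2264 bp in treatment, had 1450 and 1181 reads, a ratio of 0.814 (0.754 to 0.880). The highest ratio in the body, 2.18 (61 and 133 reads), sets different summits beside each other: the treatment peak spans 2 control peaks, its summit lies 969 bp from that of the paired control peak, and the other control peak had 149 reads.

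Tgfbr1 (chromosome 4, 47353222 to 47414926), which encodes the type I receptor kinase, had no pair with higher coverage in treatment, although 2 of its 9 were higher by deposited fold. Its first start had 2407 control and 2332 treatment reads (ratio 0.969, 0.915 to 1.03), with both summits 50 bp outside the span, and was the strongest treatment peak by fold (15.9). The other 8 pairs ran from 0.277 to 0.770. The only other peak in the span had 209 and 139 reads. Beyond the far end, the pair at 10.7 kb had 130 and 36 reads, a ratio of 0.277 (0.186 to 0.403), and the pair at 23.2 kb, the strongest control peak of the locus by fold (19.2), had 311 and 177. Tgfbr3 (chromosome 5, 107106567 to 107289629), which encodes the coreceptor betaglycan, is the longest member at 183 kb. Its end peak, at the higher coordinate, was 1277 bp wide in each library with 1009 and 715 reads. Of its 19 pairs, 6 were at least 2-fold lower in treatment. Its strongest peak by fold in each list (25.2 and 18.3), 5.24 kb outside the lower end, had 863 and 408 reads. The lowest ratio of any member pair was 14.0 kb outside that end, with 237 and 56 reads (0.236, 0.173 to 0.317) and summits 249 bp apart. Its 3 pairs that were higher in treatment were weak ones in the body, with 136 and 221, 65 and 97, and 55 and 105 reads.

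**Figure D3:**
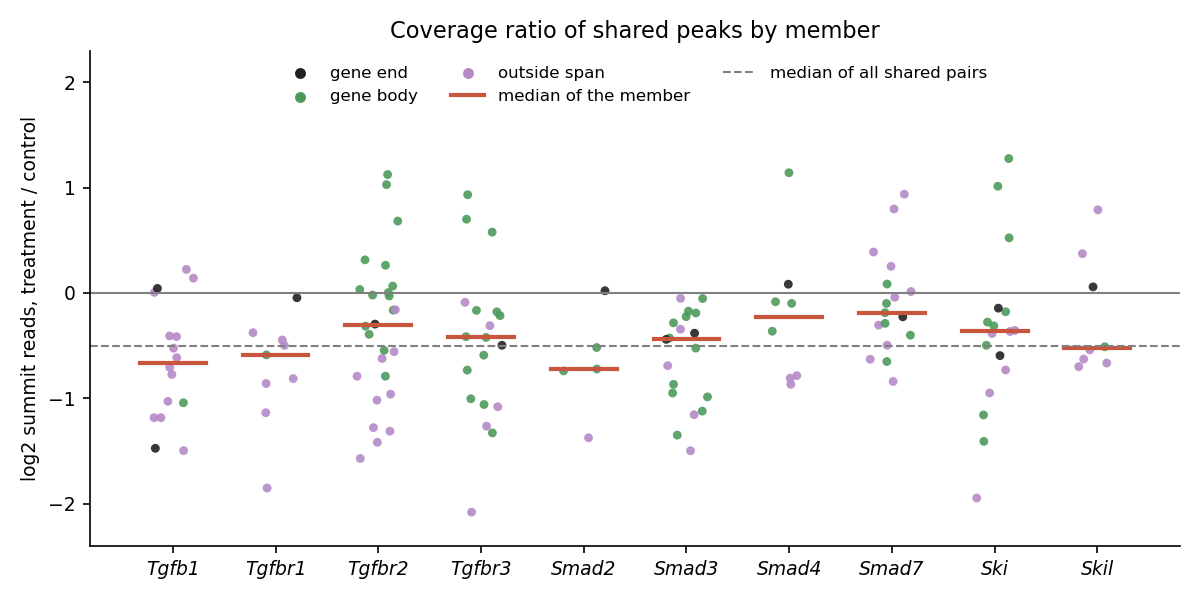
log2 ratio of summit reads, treatment over control (y axis), for every shared pair by gene (x axis), with points coloured by place, the member's median as a red bar and the median of all shared pairs as a dashed line. Medians run from 0.606 at Smad2 to 0.878 at Smad7 as plain ratios, and the body pairs of Tgfbr2 stand around 0 while its outside pairs lie beneath.

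Smad3 (chromosome 9, 63646766 to 63757994), a receptor-activated Smad that binds DNA itself, had the most control-only peaks, 11 of 30 (36.7%, 19.9 to 56.1%). The share over the whole control list, 29.2%, lies within that interval. Most of the 11 peaks were weak, with 44 to 543 reads. Of them, 6 lay between 3.56 kb outside the far end of the gene and 31.5 kb inside the span, a stretch where treatment had a single peak, shared, with 201 and 104 reads. The 1 treatment-only peak of the locus, with 36 reads, stood 5.51 kb outside the same end. All 19 pairs had lower coverage in treatment, from 0.354 to 0.965 with a median of 0.737, whereas 5 of the 19 were higher by deposited fold. The start peak had 1629 control and 1200 treatment reads (ratio 0.737, 0.683 to 0.794), and a second peak just upstream had 1345 and 1032. The strongest control peak by fold (25.6), at percentile 99.5 of its list, lay on the start side and had 711 and 560 reads. The next peak on that side, 24.8 kb from the start, had 390 and 138 reads, the lowest ratio at Smad3. The strongest treatment peak by fold (20.8), 44.2 kb beyond the far end, touched Aagab and Iqch and had 1931 and 1863 reads. Smad2 (chromosome 18, 76241090 to 76311748), the other receptor-activated Smad of the pathway, had 7 and 5 peaks. Its lower-end peak had 2315 and 2349 reads, a ratio of 1.01 (0.958 to 1.08), and was the strongest treatment peak of the locus by fold (13.6). The 4 remaining pairs ran from 0.385 to 0.698, with 506 and 195 reads at the lowest, 25.1 kb outside the lower end, which was the strongest control peak by fold (20.6).

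Smad4 (chromosome 18, 73634790 to 73703791), the shared partner of the activated Smads, had 12 and 8 peaks, and 4 control-only peaks that all lay outside its span. Its higher-end peak had 1472 and 1559 reads, a ratio of 1.06 (0.986 to 1.14), and was the strongest treatment peak by fold (15.3). In the body, pairs with 450 and 420 reads and with 602 and 568 reads had intervals that include 1. Another pair there had 199 and 439 reads, and its ratio of 2.21 (1.86 to 2.62) was among the 3 highest of the members. The 3 pairs outside the span had ratios from 0.548 to 0.580, and the strongest control peak by fold (19.3) was among them, with 574 and 333 reads. Smad7 (chromosome 18, 75367365 to 75395935), the inhibitory Smad, departed least from equal coverage, with a median ratio of 0.878 in 17 pairs. None of the 17 was at least 2-fold lower, and the same held for the 8 pairs of Smad4 and the 8 of Skil. By deposited fold Ski was nearest to equal, with a median of 1.002 against 0.953 at Smad7. The lower-end peak of Smad7 had 1878 and 1605 reads. The strongest Smad7 peak by fold in each list (18.7 and 18.2), 13.8 kb outside that end, had 905 and 732. The peak 10.2 kb inside had 1640 and 1739, a ratio of 1.06 (0.991 to 1.14). Beyond the higher end, 4 of 5 pairs were higher in treatment, with a median ratio of 1.19, while by deposited folds 2 of 5 were and the median was 0.953. The pair at 14.5 kb had 890 and 1165 reads, a ratio of 1.31 (1.20 to 1.43), and the pair at 23.6 kb had 703 and 1222, a ratio of 1.74 (1.58 to 1.91). The pair at 45.0 kb outside the lower end had 83 and 159 reads. The 2 control-only peaks of Smad7, with 371 and 678 reads, stood in a dense stretch of the body where the local background was 265 and 260 reads, and their folds were 1.40 and 2.60.

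Ski (chromosome 4, 155154075 to 155222535) encodes a corepressor that binds Smads. A peak stood on either side of its start window without touching it, with a gap of 500 bp between them in control and 577 bp in treatment. The peak outside the start had 2833 and 2563 reads, the highest coverage of any member peak in each library, with a ratio of 0.905 (0.857 to 0.955). The peak inside had 944 and 625. In the body, 3 of 9 pairs had higher coverage in treatment, and 7 of 9 a higher deposited fold. The 3 had 135 and 327 reads (2.42, 1.98 to 2.98, the highest ratio of any member pair), 366 and 526 (1.44, 1.25 to 1.65) and 159 and 321 (2.02, 1.66 to 2.46). None of the 6 pairs outside the span was higher. The lowest, 12.9 kb beyond the start, had 486 and 126 reads, a ratio of 0.259 (0.211 to 0.316), with summits 265 bp apart. The strongest peaks by fold were 1 near Prkcz in control (18.9), with 309 and 160 reads, and 1 in the body in treatment (17.4), with 1701 and 1503. Skil (chromosome 3, 31095058 to 31122923), which encodes the related corepressor SnoN, had the lowest ratio of peak numbers, with 13 in control and 8 in treatment. All 5 control-only peaks lay outside its span. The lower-end peak had 2230 and 2321 reads, a ratio of 1.04 (0.982 to 1.10). Pairs 12.0 kb and 9.92 kb outside that end were higher in treatment, with 244 and 316 reads (1.30, 1.09 to 1.54) and 158 and 273 reads (1.73, 1.42 to 2.12). By deposited fold the pair at 12.0 kb was lower in treatment, 9.35 against 10.3. The strongest peak by fold in each list (14.1 and 11.8) lay 23.2 kb beyond the higher end, with 411 and 266 reads.

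**Figure D4:**
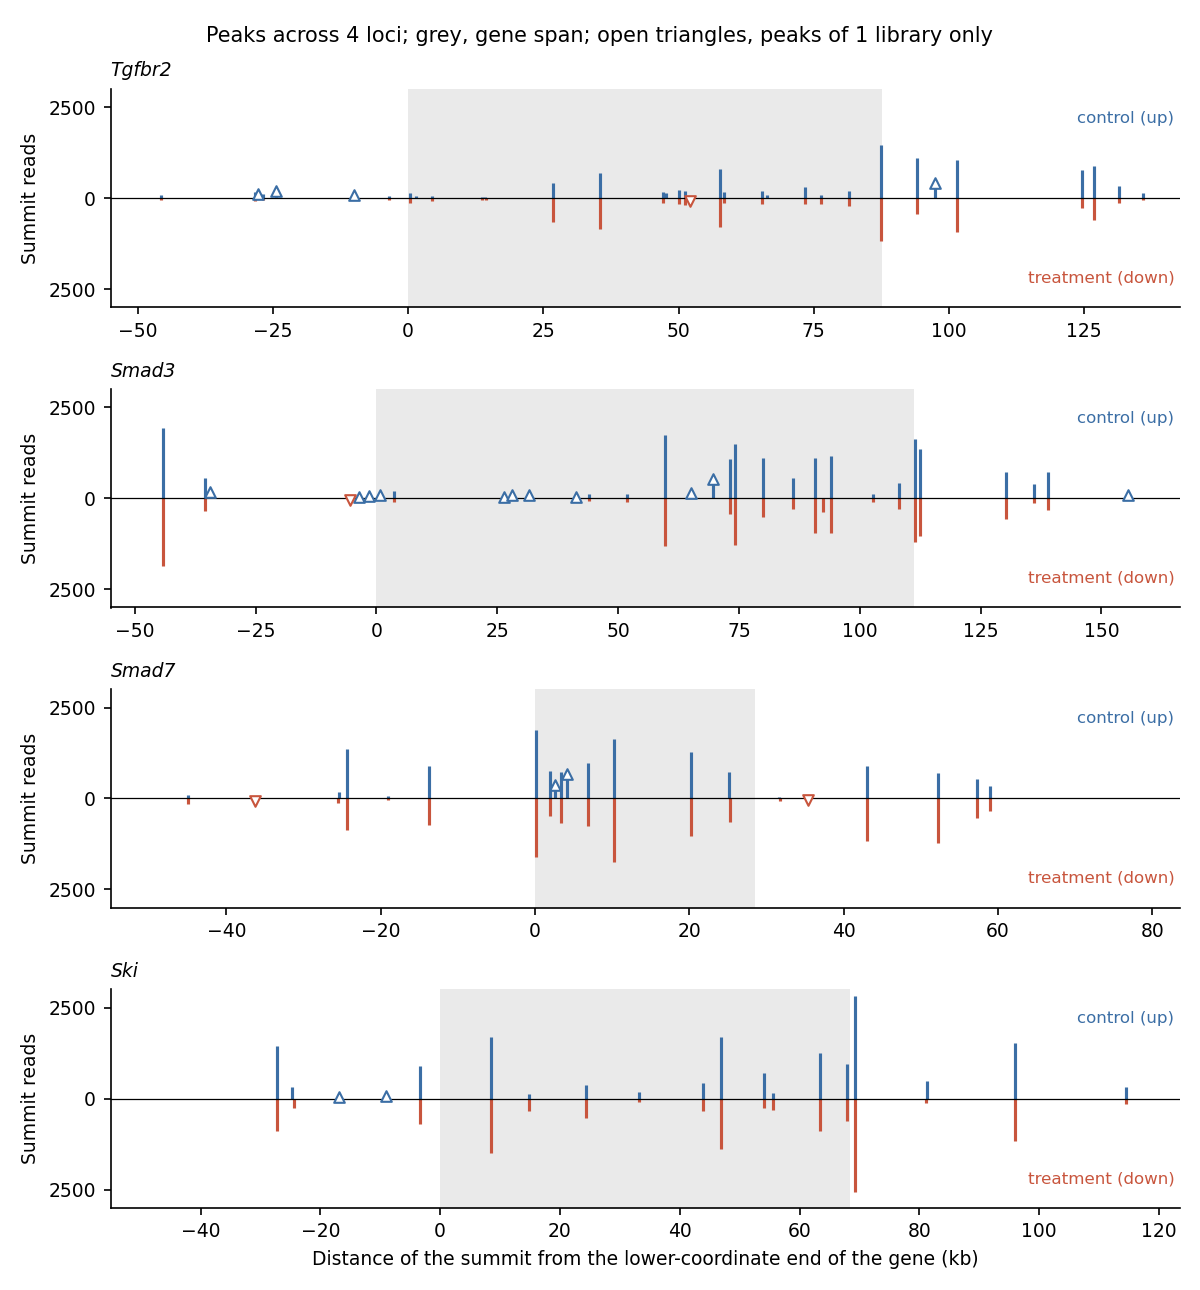
Reads over each summit (y axis, control upward and treatment downward) by distance from the lower-coordinate end of the gene in kb (x axis), at Tgfbr2, Smad3, Smad7 and Ski. Grey marks the gene span and open triangles the peaks of 1 library only. At Smad3 6 of the 11 control-only peaks stand near the lower end. At Tgfbr2 the treatment lines of shared pairs beyond the higher end, where the gene starts, are shorter than the control lines. Their ratios run from 0.336 to 0.895.

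The 5 member pairs at least 2-fold higher in treatment were at Ski (2), Tgfbr2 (2) and Smad4 (1), all in gene bodies, with 61 to 199 reads in control. They include the Tgfbr2 pair whose summits differ. Of them, 4 lay in the lowest quartile of control coverage, at most 172 reads, which held 426 of the 549 such pairs over all shared peaks. Their deposited folds, control and treatment, were 2.96 and 5.82 and 2.86 and 5.98 at Tgfbr2. They were 4.58 and 8.45 at Smad4, and 5.98 and 9.13 and 3.19 and 7.66 at Ski. Thus not all were 2-fold higher by that measure. The coverage ratios of 2.04 at Tgfbr2 and 2.02 at Ski fall under 2 once divided by 1.06, the ratio of the lowest backgrounds. Shared peaks lay at nearly the same places. Summits of the member pairs lay a median of 2 bp apart, against 5 bp over all pairs, and 119 of 144 were within 50 bp. Treatment peaks were narrower in 105 pairs (72.9%, against 78.1% of all pairs) and wider in 38, with a median width ratio of 0.948, against 0.911 over all pairs. Covered sequence at the 10 loci was 126.6 kb in control and 107.4 kb in treatment.

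Across 76 other genes of the pathway, 66 had a lower number of locus peaks in treatment, 4 a higher and 6 the same. Their loci gave 964 control and 732 treatment counts, a ratio of 0.759, beside 0.785 over all genes. A peak lying in overlapping loci counts once for each locus, here and over all genes. Fewer peaks in treatment were found for 66.7% of all protein-coding genes and 77.9% of those with any peak, and each of the 76 had a peak, so the list counts below stand beside 77.9%. With lists of equal length the ratio was 0.985. Each named gene below is given as control and then treatment peaks. Ligand and latency genes had 207 and 143, with 13 of 17 genes fewer and 0 more. The largest deficits among all 76 were at Nedd4l, a ubiquitin ligase of the pathway (41 and 24), and at Nrros, which tethers latent TGF-beta (27 and 15). They were followed by Itgav, the integrin chain that helps to release it (13 and 5), and the ligand gene Tgfb3 (16 and 8). Acvrl1, a type I receptor (19 and 12), and Ltbp4, a latency protein (22 and 15), were tied at the next place. The peak number was lower in treatment for all 13 other receptor and coreceptor genes. The other Smads and adaptors had 7 of 8 fewer, corepressors and partners 9 of 10, and ubiquitin-related and other regulators 10 of 12. Genes known to respond to TGF-beta had 16 of 18 fewer and 1 more, with 246 and 206 peaks. The 4 genes with more were Tgif2, a Smad corepressor (10 and 12), Itgae, which encodes CD103 (17 and 19), Smurf2, a ubiquitin ligase of receptors and Smads (11 and 12), and Zfyve16, an endosomal Smad adaptor (4 and 5).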

How the data were processed

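Both libraries were deposited as peak lists in the narrowPeak layout on mm10, made by the authors with cutadapt 2.5, Bowtie2 2.3, Picard 2.20 and MACS2, per the submitters' processing notes. On caller settings, filters and any transposase read shift, the answer is not given in the sources used here. Each deposited peak carries the authors' score, their fold enrichment at the summit as a ratio, and a −log10 p-value and −log10 q-value, the lowest being 2.00. The deposited summit offset in bases gave positions. Peaks were called per library, not on pooled reads.

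Only peaks of chromosomes 1 to 19 and the sex chromosomes entered, read with Python 3.11.15, pandas 2.3.3 and SciPy 1.17.1. Coverage k and background b solve (k + 1)/(b + 1) = fold and the Poisson tail p, accepted within 0.001 in −log10 p (99.994% of control and 99.977% of treatment peaks). Recovery, sharing and locus counts were tested on simulated data. Read totals were not used here. Intervals of a ratio are exact conditional binomial. Limits for a count of 0 use 3 counts. Gene positions and promoters came from RefSeq (GRCm38.p6). Members without a promoter window have no strand here, so their ends are named by coordinate. The members and lists were chosen with earlier results of these data known. All 10 members are described. Named peaks were the strongest by fold, those at gene ends, the 3 strongest single-library peaks per list and the 3 highest and lowest coverage ratios. Other pairs were picked after their values were seen. Pathway genes named had the 5 largest differences per direction, ties included.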

Additional observations from a re-analysis of the deposited data

How the results depend on the processing

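No paired analysis was possible because each group holds 1 library, and for the same reason none could be left out. The ratio of treatment to control member peaks ran from 0.792 to 0.886 with other flanks, with −log10 q-value limits of 5 and 10, and in 3 settings chosen after seeing the data (a coverage of at least 100 reads, no peaks touching another gene, no Smad3). With lists of equal length it was 1.04, and that of the other pathway genes 0.985. The control-only share was then 11.7% and the treatment-only share 15.9%, beside 16.7% and 16.1% over all peaks, and 4 members had fewer peaks in treatment. The sign turned at Tgfbr2 (2 more in treatment), Tgfbr3 (5), Smad2 (1) and Ski (1), and Smad7 went from equal to 5 more. Elsewhere Smad7 moved the other way, with 9 control and 7 treatment peaks in its span alone and 10 and 9 with 10 kb flanks. It had 18 and 17 under the stricter q-value limit, 10, where all 10 members had fewer peaks in treatment. It had 16 and 15 under the limit of 100 reads, and stayed at 19 and 19 without peaks touching another gene. With gene spans alone the control-only share was 11.4% and 3 members had fewer peaks. At 50% reciprocal overlap the treatment-only share was 9.93% and with summits within 150 bp 8.61%, beside 14.4% and 13.0% over all peaks. Pairs at least 2-fold lower made up 6.94% by deposited folds and 21.5% after scaling by the lowest background, where 0 of 13 gene end pairs were higher in treatment, against 4 unscaled. The cause was not tested. Of the single-library member peaks, 22 of 39 in control and 6 of 6 in treatment had under 100 reads.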
